A study of Homo sapiens with 16 samples.

Results

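The genes described here act at the start of DNA replication and at the kinetochore: TICRR, MTBP, TOPBP1 and CDC45 on the replication side, and CENPN, CENPE, CENPF, CENPB, KNL1 and the proliferation marker MKI67 on the chromosome segregation side. They were examined by MeRIP-seq, in which an antibody against N6-methyladenosine (m6A) enriches methylated RNA fragments, and peaks are called where enriched (IP) RNA exceeds unenriched (input) RNA. The members are the regions of the merged peak list, and the peaks of the 8 IP lists, that overlap the GENCODE spans of these 10 genes. This gave 32 of 36970 merged regions, in 8 of the 10 genes. Regions were selected by their position, and a region exists only where peaks had been called. TICRR and CENPN were chosen by the study on the contrast between the lines in these libraries, so their values are given as a description, without a test.

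The libraries came from human prostate cancer cells of the line C4-2B, which responds to the androgen receptor blocker enzalutamide, and of MDV-R, an enzalutamide-resistant line derived from C4-2B by serial passage. Both were wild type by their labels, were grown in RPMI with fetal bovine serum and were sampled at day 3. By the study's methods MDV-R was kept in medium with enzalutamide, which is not named for C4-2B, so resistance and drug exposure cannot be told apart. The labels give the same medium for both lines and do not say whether the drug was present at sampling. Each line had 4 IP and 4 input libraries. Resistance was represented by this 1 derived line, and nothing in the labels says that replicates came from separate cultures, so p-values measure the spread between these samples. MDV-R titles also include T24R2, and the cell line field was followed. Of 9 prostate luminal markers, all 9 held a called region in both lines and 7 held a region in every list. Of 8 urothelial markers, UPK3A was called in 4 lists of MDV-R and 2 of C4-2B, UPK2 in 2 MDV-R lists, and the other 6 in no list.

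Before a cell can copy its DNA, origins loaded with the MCM helicase must be fired. TICRR (also called treslin) and its partner MTBP bring CDC45 to the helicase together with TOPBP1, in a step controlled by cyclin-dependent kinases. Kinetochores are built on centromeric chromatin during the same cycle: CENPN belongs to the inner assembly that recognises the centromeric histone CENPA, CENPB binds a box in centromeric satellite DNA, KNL1 is the outer scaffold that docks spindle checkpoint proteins, CENPE is a kinetochore motor, CENPF a large coiled-coil protein of the outer kinetochore, and Ki-67, the product of MKI67, coats mitotic chromosomes. Messenger RNAs carry m6A mostly in long internal exons and near stop codons, and GGAC is the core of the best known methylation motif.

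Sequences around the strongest summits (the base of highest enrichment) show where the exonic signal of these genes lay. They were read from hg38 on the strand of the gene, 5′ to 3′, with GGAC in capitals, and the 29 nt windows are centred near the GGAC closest to the strongest summit of the region. They are shown for the coding regions of TICRR and for the exonic regions called in all 8 lists, wherever a GGAC lay within 100 nt.
TICRR, coding part of exon 1, chr15:89575913-89575941: agactaccagtgGGACcggcccgagatca
TICRR, coding part of exon 22, chr15:89627065-89627093: aacctggctggaGGACttatagccacaaa
CENPF, exon 12, chr1:214640336-214640364: aacgctggagatGGACagagaaaacctaa
CENPF, exon 13, chr1:214645684-214645712: gagtttggaaaaGGACtcacaggcactgt
CENPB, exon 1, chr20:3784682-3784710: gttcgaggtcttGGACatcaaagctgagt
MKI67, 3′UTR in exon 15, chr10:128098987-128099015: tgctgggctcctGGACtgagaatagttga
MKI67, exon 14, chr10:128101554-128101582: ctccccagagatGGACattcagaatccag
In these 7 windows the A of GGAC lay 16, 62, 28, -79, 32, -16 and 23 nt from the summit, in the order printed, with negative values upstream. They are distances on the genome from the strongest summit over all libraries. The TICRR exon 22 window runs through the stop codon into the 3′UTR, and its GGAC is coding. The exon 20 region of TICRR and the CENPF intronic region called in all 4 MDV-R and no C4-2B lists had no GGAC within 50 nt of the summit, and their summit windows of 101 nt are printed for comparison.
TICRR, exon 20, chr15:89625033-89625133: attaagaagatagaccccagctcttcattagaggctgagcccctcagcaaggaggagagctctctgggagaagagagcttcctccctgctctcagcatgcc
CENPF, intron, chr1:214648542-214648642: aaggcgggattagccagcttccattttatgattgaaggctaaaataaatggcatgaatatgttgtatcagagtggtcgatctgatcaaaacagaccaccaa
GGAC stood within 50 nt of the summit in 4 of the 9 exonic member regions called in all 8 lists (44.4%), and on the opposite strand in 0 of 9. Over all 7238 exonic regions called in all 8 lists the shares were 50.5% and 25.4%. A match is a description of the letters and does not show a methylated base.

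The deposited lists give a fold enrichment for each peak, the ratio of IP pileup to local background at the summit, with a count of 1 added to both. The added count lowers the ratio most where the background is low. Fold enrichment is therefore not the plain quotient of the IP coverage and local background printed here. From the fold enrichment and its p-value the IP coverage and the local background were recovered, and both are given in multiples of the average coverage of the library. IP coverage follows both the amount of a transcript and its methylation. The local background is the larger of several input windows around the summit, and only approximates the abundance of the transcript. The IP libraries had similar depths, with 86.4 to 121 Mb of coverage in C4-2B and 89.7 to 103 Mb in MDV-R. The input libraries of MDV-R were deeper, with 160 to 297 Mb against 90.1 to 123 Mb in C4-2B, so that input depth and line cannot be told apart. MDV-R replicate 3 had the shallowest input of its line (160 Mb). C4-2B replicate 1 had the shortest list, with 13191 peaks against 23254 to 30645 in the others, and it called 12 of the 32 member regions against 16 to 24 in the others.

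By the strongest summit, 16 of the 32 regions were coding, 11 were intronic and 3 lay in untranslated sequence (2 at the 3′ and 1 at the 5′ end). The strongest summits of the other 2 regions fell in a neighbouring gene, KIF7 or SNTB1. Calls were concentrated in CENPF with 11 regions and MKI67 with 7, followed by TICRR with 4, CENPN with 3, MTBP, CENPE and KNL1 with 2 each, and CENPB with 1. TOPBP1 and CDC45 held no region and no peak in any list. The 10 regions called in all 8 lists lay in TICRR, CENPF, CENPB, MKI67 and KNL1. Another 11 regions were called in 1 list alone, with 7 to 75 IP fragments at their summits, against 18 to 202 in those called in all 8 lists.

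**Figure D1:**
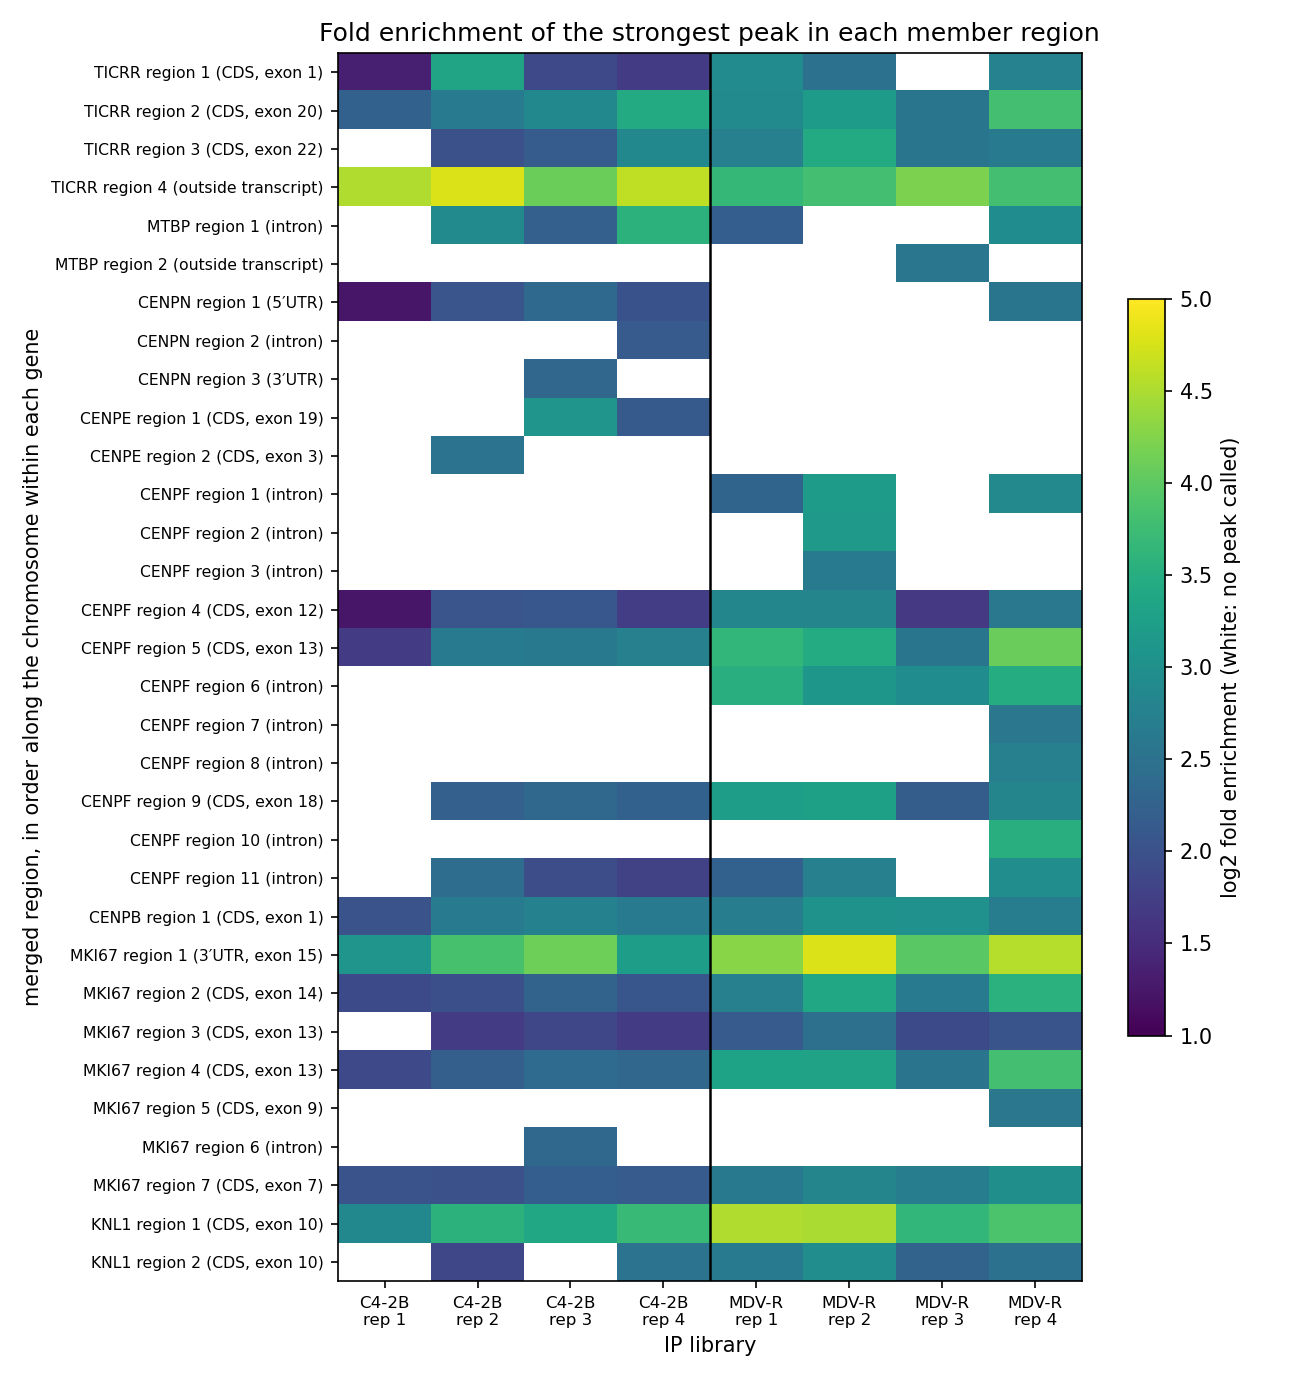
Fold enrichment of the strongest peak (colour, log2 scale) in each of the 32 member regions (rows, numbered along the chromosome within each gene) and each of the 8 IP libraries (columns); white cells had no called peak. In all, 10 rows are filled in all 8 columns, the sixth CENPF row (intron) is filled in the 4 MDV-R columns alone, and the first CENPN row is filled in the 4 C4-2B columns and 1 MDV-R column.

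Calls alone separated few member regions by line. Over the 36076 regions with a call, 25.9% were called in all 8 lists, and 10 of the 32 member regions were. Of all regions 20.8% were called in 1 list. In all 4 MDV-R lists and no C4-2B list lay 3.68% of all regions, and 1 member region, with its summits in a CENPF intron. The reverse pattern, 4 C4-2B lists and no MDV-R list, held for 1.22% of all regions and for 0 members. In 4 C4-2B lists and at most 1 MDV-R list lay 1.71% of all regions, and 1 member region, at the 5′ end of CENPN. By two-sided Fisher's exact test with Benjamini-Hochberg adjustment, 0% of all regions passed the threshold of 0.05. The smallest p that 4 lists against 4 allow is 0.0286, reached by 1766 regions before adjustment, and the smallest adjusted p was 0.584.

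TICRR held 4 regions. Its span is chr15:89575469-89631056 on the plus strand, and KIF7 lies on the opposite strand across its 3′ part, so that the coding regions in exons 20 and 22 also lie in an intron of KIF7, and the peak lists carry no strand. The region in exon 1 (chr15:89575435-89576361) had a peak in all 4 libraries of C4-2B and in 3 of MDV-R. The region of 2182 nt that covers most of exon 20 (chr15:89623527-89625708), the longest TICRR exon with 2164 nt, was called in all 8 lists. The region in the last exon (chr15:89626798-89627530) had a peak in 3 libraries of C4-2B and all 4 of MDV-R, its summits lay within 56 nt of each other, and the strongest stood 69 nt before the end of the stop codon.

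In exon 20 of TICRR the IP coverage was 132, 184, 180 and 177 in C4-2B replicates 1 to 4 and 66.6, 73.3, 87.6 and 97.0 in MDV-R replicates 1 to 4. The local background there was 25.4, 26.9, 22.0 and 13.1 in C4-2B and 6.04, 5.06, 12.6 and 3.84 in MDV-R. The fold enrichment was 4.71, 6.28, 7.26 and 10.9 in C4-2B and 7.46, 9.28, 5.85 and 14.0 in MDV-R. The lines did not overlap in IP coverage or in local background, where MDV-R was the lower, and they overlapped in fold enrichment. After each library was centred on its median, MDV-R minus C4-2B was -1.14 ± 0.11 (log2, SE, n = 4 per line) for IP coverage, -1.26 ± 0.30 for local background and -0.08 ± 0.25 for fold enrichment. Without centring the difference in fold enrichment was 0.32. The strongest summit lay at different places within the exon, up to 1135 nt apart between libraries, so the values do not all refer to the same bases.

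The other coding regions of TICRR showed the same order of the lines. In exon 1 the IP coverage was 82.1 to 104 in the 4 C4-2B lists and 31.9 to 53.5 in the 3 MDV-R lists with a call. In exon 22 it was 86.2 to 122 in 3 C4-2B lists and 36.8 to 60.6 in 4 MDV-R lists. Fold enrichment in exon 1 ranged from 2.56 to 10.1 in C4-2B and from 5.64 to 7.66 in MDV-R, and the lines overlapped. In exon 22 the fold enrichment was 3.96, 4.48 and 7.32 in C4-2B and 6.70, 10.9, 5.88 and 6.37 in MDV-R, again with overlap. The MDV-R values rested on 10 to 20 IP fragments at these summits.

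The last TICRR region (chr15:89629309-89632824) runs past the end of the gene into KIF7. All 4 C4-2B summits lay between positions 89631841 and 89631844, outside the TICRR span and in an intron of KIF7. In 3 of the 4 MDV-R libraries the strongest summit lay more than 2000 nt away, inside the TICRR span but beyond the end of its canonical transcript. The IP coverage was 308, 416, 383 and 403 in C4-2B and 69.9, 57.4, 87.6 and 60.2 in MDV-R. The lines did not overlap, with a difference of -2.55 ± 0.12 on the log2 scale (SE, n = 4 per line). It cannot be assigned to TICRR rather than to its neighbour.

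**Figure D2:**
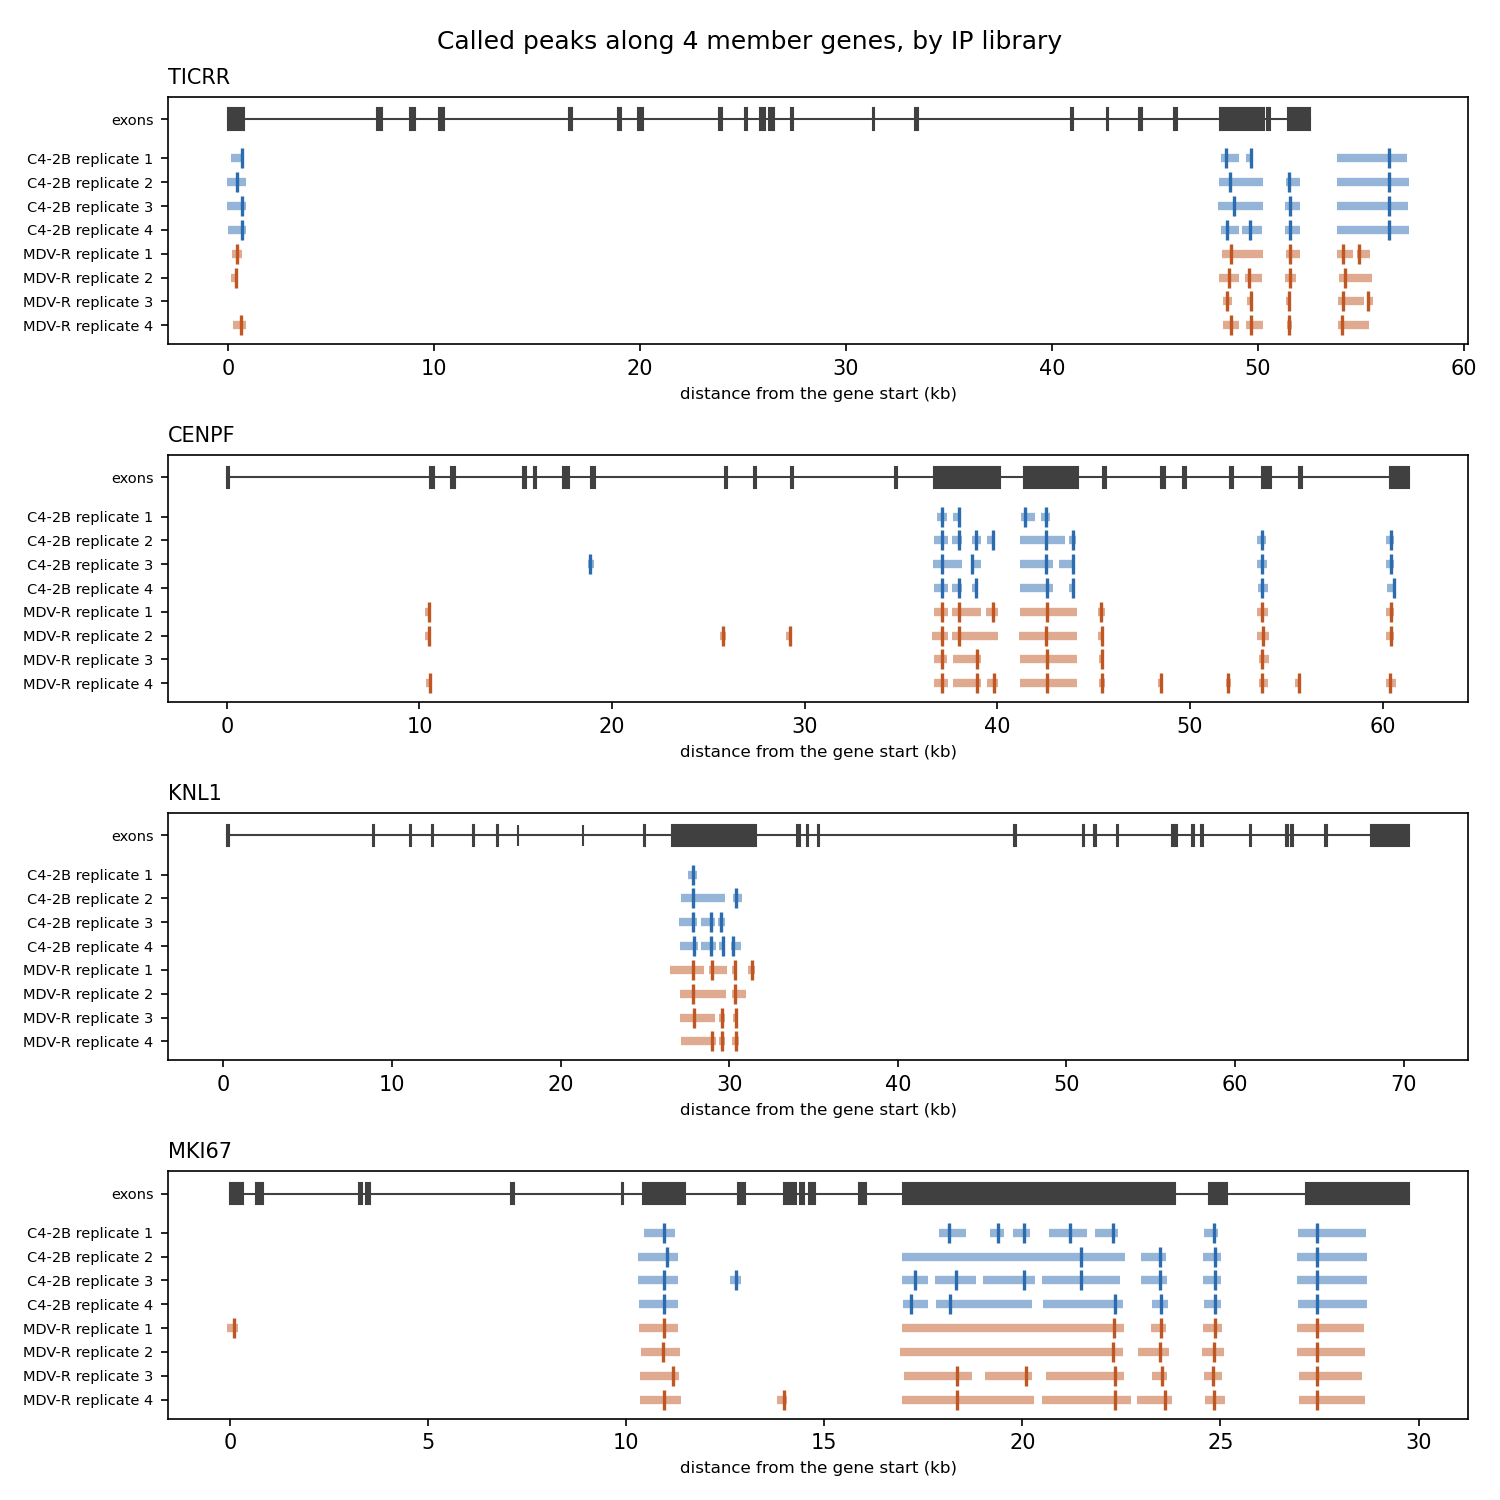
Exons of the canonical transcript (dark boxes) and called peaks that overlap the gene span (bars, with the summit as a tick) of TICRR, CENPF, KNL1 and MKI67 in each IP library, blue for C4-2B and orange for MDV-R, against the distance from the gene start in kb. Many peaks lie in the longest exons (TICRR exon 20, CENPF exons 12 and 13, KNL1 exon 10 and MKI67 exon 13). These exons also make up much of the transcripts. TICRR exon 20 has 2164 of 6788 nt and 13 of 37 peaks, and MKI67 exon 13 has 6845 of 12716 nt and 27 of 54 peaks. KNL1 exon 10 has 5001 of 9266 nt and all 22 peaks. The C4-2B summits of the last TICRR region stand beyond the gene.

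The partners of TICRR gave little signal. MTBP (chr8:120445400-120542133) held an intronic region with a peak in 3 libraries of C4-2B and 2 of MDV-R, with 5 to 17 IP fragments at the summit and a local background of 1.00 to 1.79, close to the library average. The fold enrichment there was 7.48, 4.70 and 11.9 in C4-2B and 4.60 and 7.70 in MDV-R, with overlap. The other MTBP region was called in 1 MDV-R list and lay in the 3′UTR of the neighbouring gene SNTB1. TOPBP1 and CDC45, without a peak, cannot be told apart from transcripts of low level, since a peak needs both methylated RNA and depth.

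CENPN was called almost only at its 5′ end. The region (chr16:81006426-81007238) lies in the 5′UTR of CENPN transcripts that start upstream of the canonical transcript, and also in an intron of CMC2 on the opposite strand. The IP coverage was 445, 577, 598 and 591 in the 4 C4-2B lists, from 170 to 194 IP fragments, and 66.9 in MDV-R replicate 4, from 20 fragments. The other 3 MDV-R lists had no peak there, which gives no value, not a value of 0. The local background was 186, 137, 113 and 144 in C4-2B and 8.66 in MDV-R replicate 4, whereas the fold enrichment was 2.36, 4.15, 5.18 and 4.02 in C4-2B and 5.85 in that MDV-R library. C4-2B libraries thus had a higher IP coverage, a higher background and a lower fold enrichment than this 1 MDV-R library. Its values do not stand for the line, and the summits lay up to 159 nt apart between libraries. The 2 remaining CENPN regions were called in 1 C4-2B list each. The first had its summit in an intron shared with CMC2 and ran into exon 2 of CENPN. The sequence around this summit holds the forward primer that the study lists for its CENPN 5′UTR m6A site. The other region lay in a 3′UTR.

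CENPF (chr1:214603185-214664574) had 33 of its 59 peaks in 2 adjacent long coding exons. Of the 10290 nt of the canonical transcript, exon 12 has 3404 nt and exon 13 has 2844 nt. They held 21 and 12 of the summits. In exon 12 the IP coverage was 209, 232, 222 and 236 in C4-2B and 186, 204, 190 and 174 in MDV-R. All MDV-R values lay below all C4-2B values, and the difference passed the test at -0.34 ± 0.09 (log2, SE, n = 4 per line; limma adjusted p = 0.0127). Without centring it was -0.25 and no longer passed (limma adjusted p = 0.209). The strongest summits in exon 12 lay up to 1815 nt apart between libraries, so the values do not all refer to the same bases.

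In exon 13 of CENPF the IP coverage was 323, 407, 402 and 466 in C4-2B and 416, 398, 333 and 385 in MDV-R, which overlapped. The difference of -0.14 was not past the threshold (95% interval -0.36 to 0.08; limma adjusted p = 0.275). The local background was 97.5, 63.3, 62.8 and 67.0 in C4-2B and 30.0, 33.4, 54.0 and 19.5 in MDV-R. These values did not overlap, but the difference of -0.65 missed the threshold (interval -1.16 to -0.15; limma adjusted p = 0.0883). The fold enrichment was 3.24, 6.19, 6.14 and 6.66 in C4-2B against 12.6, 11.0, 5.90 and 17.0 in MDV-R, where MDV-R replicate 3, with the shallowest input of its line, lay within the C4-2B range. The difference in fold enrichment was 0.62 (interval 0.10 to 1.14; limma adjusted p = 0.191).

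In CENPF, 8 regions were intronic in the canonical transcript by their strongest summit, and 7 of them were called in MDV-R lists alone, 5 of these in 1 list each. Each of these 7 regions ran past its intron into the start of the next exon, so they straddle intron-exon borders. The 8th was called in 3 lists of each line, and 5 of its 6 peaks had their summit in coding exon 20. By a class taken over all transcripts, 6 of 7 intronic CENPF regions were called in MDV-R alone, against 36.0% of 12156 intronic regions over all genes, and 18.1% of these were called in C4-2B alone. How many of the 12156 also cross into an exon was not counted. The CENPF region called most widely in MDV-R alone (chr1:214648417-214648768) had a peak in all 4 MDV-R lists, with a fold enrichment of 11.4, 8.69, 7.71 and 11.1, and in no C4-2B list (two-sided Fisher's exact test, p = 0.0286, adjusted p = 0.584). Its IP coverage was 146, 121, 155 and 131, from 38 to 53 fragments, and its summits lay within 44 nt. Another region, intronic at its strongest summit (chr1:214613454-214613773), was called in 3 MDV-R lists, and in MDV-R replicate 4 its summit lay in exon 2. MDV-R inputs were deeper, and the part of input depth in these calls was not tested. The region in exon 18, with a peak in 3 libraries of C4-2B and 4 of MDV-R, had an IP coverage of 137 to 167 in C4-2B and 134 to 186 in MDV-R, with overlap.

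CENPB (chr20:3783851-3786740), a gene of 1 exon, was covered by 1 region of 2765 nt called in all 8 lists, with strongest summits up to 286 nt apart between libraries. Its IP coverage was 480, 591, 627 and 702 in C4-2B and 439, 488, 476 and 408 in MDV-R. The lines overlapped only through C4-2B replicate 1, the library with the shortest list, and the difference passed the test at -0.48 ± 0.07 (limma adjusted p = 4.54e-04). The fold enrichment was 4.08, 6.31, 6.74 and 6.27 against 6.46, 8.21, 8.09 and 6.44, a centred difference of -0.07 that turned to 0.33 without centring (limma adjusted p = 0.920 and 0.540). The coverage call was lost when the peak with the highest fold enrichment stood for the region (-0.99, limma adjusted p = 0.0696). CENPE, with 49 exons of at most 506 nt, held 2 coding regions called in 2 lists and 1 list of C4-2B and in none of MDV-R, with 19 to 22 IP fragments each.

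KNL1 (chr15:40594020-40664342) carried all 22 of its peaks in exon 10, which has 5001 of the 9266 nt of its canonical transcript. In the first of its 2 regions the IP coverage was 191, 190, 235 and 229 in C4-2B and 213, 214, 202 and 171 in MDV-R, with overlap. The difference was -0.17 (95% interval -0.41 to 0.08; limma adjusted p = 0.236). The fold enrichment was 7.31, 11.9, 10.4 and 13.1 against 23.1, 22.4, 12.5 and 14.6, which overlapped (difference 0.34, limma adjusted p = 0.508). In the first region the strongest summits lay up to 1101 nt apart between libraries, so its values do not all refer to the same bases. The second region had a peak in 2 libraries of C4-2B and 4 of MDV-R, with 26 to 41 IP fragments.

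MKI67 (chr10:128096659-128126423, minus strand) was the member with the most regions called in all 8 lists, 4 of its 7. The strongest by fold enrichment was the 3′UTR region (chr10:128097722-128099501), whose 8 summits lay within 16 nt of each other and 205 nt past the stop codon at the strongest. Its IP coverage was 373, 437, 473 and 521 in C4-2B and 286, 322, 286 and 251 in MDV-R. Its local background was 41.0, 27.8, 24.3 and 52.5 in C4-2B and 11.5, 8.56, 15.4 and 7.42 in MDV-R. Neither overlapped between the lines, and both fell in MDV-R, by 0.73 for coverage and by 1.26 for background on the log2 scale (limma adjusted p = 8.17e-05 and 0.0108). The fold enrichment was 8.50, 14.3, 17.3 and 9.37 in C4-2B and 19.6, 27.7, 15.8 and 23.6 in MDV-R, which overlapped through MDV-R replicate 3, and the difference of 0.44 missed the threshold (95% interval -0.06 to 0.94; limma adjusted p = 0.348).

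The coding regions of MKI67 behaved alike. In exon 14 the IP coverage was 346, 461, 399 and 441 in C4-2B and 293, 319, 301 and 311 in MDV-R. Exon 13 has 6845 of the 12716 nt of the canonical transcript and held 27 of the 54 MKI67 peaks. Its long region had an IP coverage of 333, 431, 424 and 459 in C4-2B and 316, 296, 298 and 318 in MDV-R. Its strongest summits lay up to 847 nt apart between libraries. In exon 7 the values were 229, 262, 289 and 288 against 173, 169, 181 and 171. In none of these regions did the lines overlap, and the IP coverage fell by 0.50, 0.50 and 0.70 on the log2 scale in exons 14, 13 and 7 (limma adjusted p = 5.46e-04, 4.06e-04 and 3.84e-05).

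The local background of the coding MKI67 regions fell as well, with differences of -1.03, -1.04 and -0.91 in exons 14, 13 and 7 (limma adjusted p = 0.0215, 0.0105 and 0.0440). It was 79.9 to 115 in C4-2B and 23.5 to 45.0 in MDV-R in exon 14, and 53.6 to 63.5 against 18.6 to 25.6 in exon 7. These background calls were less firm than those of coverage: 4 regions passed with all libraries, and 2 without MDV-R replicate 2, without MDV-R replicate 3 or without MDV-R replicate 4. The fold enrichment of the coding regions was higher in MDV-R by 0.63, 0.63 and 0.29 and did not pass (limma adjusted p = 0.156, 0.149 and 0.565). The second region in exon 13, with a peak in 3 libraries of C4-2B and 4 of MDV-R, had an IP coverage of 250 to 264 in C4-2B and 127 to 169 in MDV-R.

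**Figure D3:**
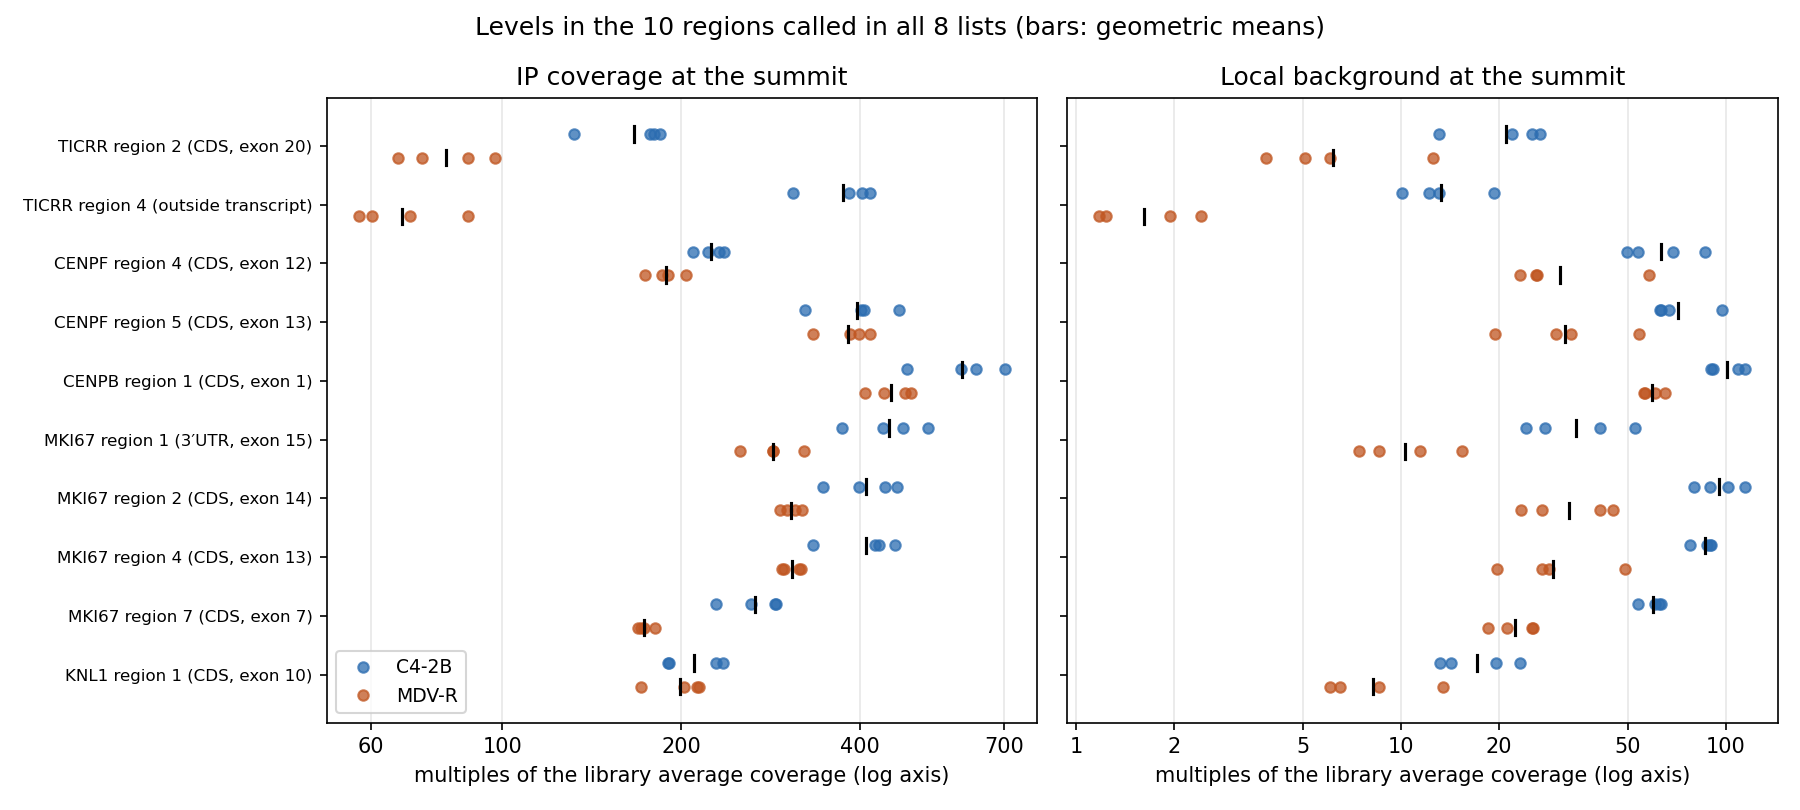
IP coverage (left) and local background (right) at the strongest summit of the 10 regions called in all 8 lists, in multiples of the average coverage of the library on log axes; each point is an IP library, blue for C4-2B and orange for MDV-R, and bars are geometric means. The 4 MKI67 regions, the TICRR exon 20 region and the last TICRR region are separated between the lines in both panels. CENPF exon 13 and KNL1 overlap in IP coverage. Separation was common: an exact permutation p under 0.05 with 4 libraries per line needs full separation of the centred values. Of 9277 regions, 4287 reached it for IP coverage and 1951 for local background.

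Across the 8 tested regions, in CENPF, CENPB, MKI67 and KNL1, IP coverage was lower in MDV-R in 6 and higher in 0. These 6 were the 4 MKI67 regions, which share a transcript and are not independent, and those of CENPB and CENPF exon 12. Among all 9277 regions tested for coverage, 26.9% were lower and 23.3% were higher, so changes in coverage were common. The local background was lower in 4 of the 8 regions, all in MKI67, and higher in 0, against 6.73% lower and 6.25% higher over all regions. The fold enrichment passed in 0 of the 8, against 0.847% higher and 1.79% lower over 9327 regions. At an unadjusted limma p under 0.05, CENPF exon 13 and MKI67 exons 13 and 14 would pass, each higher in MDV-R. Over all 9327 regions 1674 would, in either direction. With an exact two-sided permutation test over the 70 arrangements of the libraries, 0 of all regions passed after adjustment for any readout, and 999, 4287 and 1951 did at an unadjusted p under 0.05 for fold enrichment, IP coverage and local background. Differences are relative to the median region of each library. Without centring the median moved by 0.40 for fold enrichment, 0.08 for IP coverage and -0.50 for local background, and the balance over all regions turned for fold enrichment, from 79 higher and 167 lower to 318 higher and 21 lower. For local background it went from 580 higher and 624 lower to 153 and 994, and for IP coverage from 2165 and 2499 to 1844 and 1361, while 0, 5 and 4 member regions passed for fold enrichment (either way), IP coverage (lower) and background (lower).

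**Figure D4:**
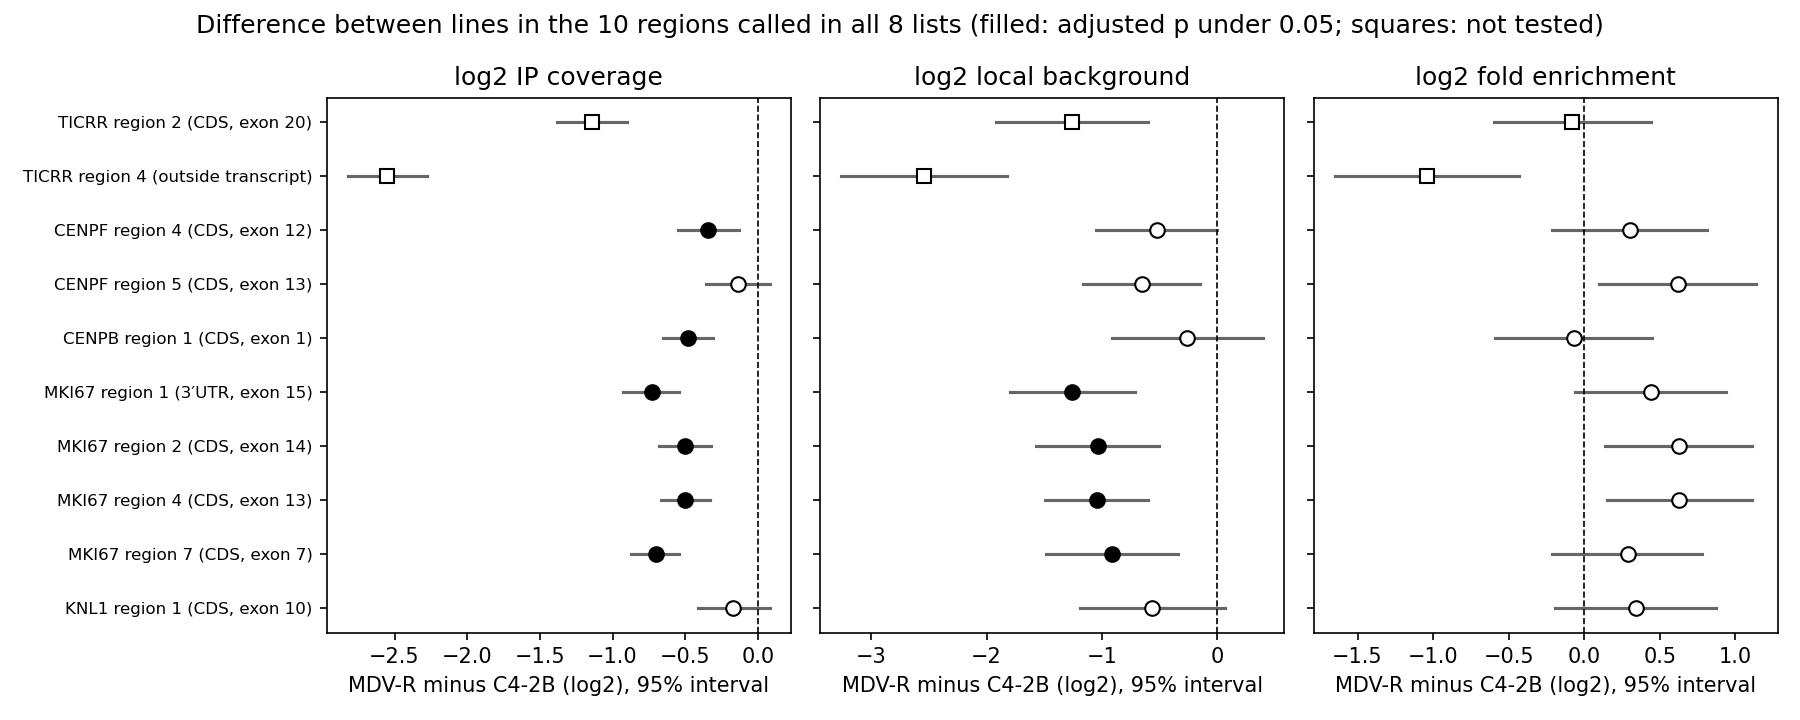
MDV-R minus C4-2B on the log2 scale, with 95% intervals, for IP coverage, local background and fold enrichment in the 10 regions called in all 8 lists; filled points passed limma's adjusted threshold, open points did not, and open squares are TICRR regions, which were not tested. Every estimate for IP coverage and local background lies below 0, with 6 and 4 filled points, and no point is filled for fold enrichment.

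Of the 8 coding member regions called in all 8 lists, 7 lay in an exon of more than 1000 nt, and 68.6% of the 3975 coding regions called in all 8 lists did as well. The exception, MKI67 exon 14, has 444 nt and a region of 561 nt. The 8 regions had a median length of 2894 nt, against 1088 nt over those coding regions, and 6 of 8 exceeded 2000 nt, against 16.1%. Their IP coverage stood between percentile 30.8 (TICRR exon 20) and 97.7 (CENPB) of the 9277 regions. Their fold enrichment was often low, at percentile 0.783 in CENPF exon 12 and 2.85 in MKI67 exon 7, and was highest in KNL1, at 64.1. The MKI67 3′UTR region, outside this coding set, stood at percentile 77.6.

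Other genes of the same pathways were examined as lists. Of 49 genes of origin licensing and the replication fork, 28 held a region and 11 held a region called in all 8 lists. In the 14 such regions, IP coverage was lower in MDV-R in 11 and higher in 1, against 26.9% and 23.3% over all regions. Its median difference was -0.78 against -0.02. The local background was lower in 9 and higher in 0, against 6.73% and 6.25% (median -1.17 against 0.02). The fold enrichment passed in 0 of the 14 (median 0.39 against 0.03). The largest falls in coverage were in MCM10, a helicase-associated replication factor (-1.23), in the checkpoint mediator CLSPN (-1.19) and in GINS3, a subunit of the replicative helicase (-1.10; limma adjusted p = 3.49e-05, 1.05e-05 and 8.69e-06). The region that rose lay in an intron of POLD3, a subunit of DNA polymerase delta (0.58, limma adjusted p = 2.54e-04). The background fell most in CLSPN (-2.15), ORC1 (-1.96) and GINS3 (-1.86; limma adjusted p = 0.00212, 7.99e-04 and 0.0105). No gene of this list had a region called in all lists of 1 line and none of the other.

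Of 53 further genes listed for the kinetochore and centromere, 34 held a region and 14 held a region called in all 8 lists. The list includes CENPJ, which despite its symbol encodes a centrosomal protein. In these 19 regions IP coverage was lower in MDV-R in 13 and higher in 0, against 26.9% and 23.3% over all regions (median -0.38 against -0.02). The local background was lower in 5 and higher in 0, against 6.73% and 6.25% (median -0.61 against 0.02). Coverage fell most in CENPI (-0.96), CENPX (-0.89) and CENPJ (-0.66; limma adjusted p = 5.27e-05, 5.14e-05 and 7.14e-05). Background fell most in HJURP (-1.75), SPC24 (-1.58) and SGO1 (-1.39; limma adjusted p = 0.0185, 0.00288 and 0.0215). Fold enrichment rose in 2 of the 19 regions, against 0.847% over all regions. The region of HJURP, the chaperone that deposits CENPA, rose by 1.15 ± 0.28 (limma adjusted p = 0.0360). That of SPC24, a subunit of the NDC80 complex, rose by 1.00 ± 0.26 (limma adjusted p = 0.0448). Intronic regions of PMF1 and CLASP1 were called in all 4 MDV-R and no C4-2B lists, and an intronic region of CENPJ in all 4 C4-2B and no MDV-R lists. These were 2 and 1 of the 81 regions of the list, against 3.68% and 1.22% over all regions.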

How the data were processed

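The authors aligned MeRIP-seq reads to hg38 with STAR (2.7.0) and GENCODE 39, removed multimapping and duplicate reads (SAMtools 1.10), and ran MACS2 (3.0.0a6) separately for every IP against its input. Each deposited list gives a score, a fold enrichment (ratio), a −log10 p-value and a −log10 q-value per peak; the score was not used further. A deposited merged list gives regions alone. Whole IP fragments solved fold enrichment and p-value in 99.56% to 100.0% of peaks per list, within a tolerance of 0.003, with a genome size of 300 Mb. The recovered background steps fitted fragments of 239 to 293 nt rather than the stated extension of 100 nt, so depth is given as coverage, and intervals do not cover this reconstruction.

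Regions were called with at least 1 bp of overlap, took values from the peak with the highest −log10 p, and were annotated with GENCODE 44. Log2 values were tested with limma (3.58.1), two-sided, over all regions called in all 8 lists, with Benjamini-Hochberg adjustment at 0.05. Recovery, calls and limma were tested on simulated data. Members and lists were chosen with earlier results of these data known. All members were described, and pathway genes were named for a region called in all lists of 1 line alone or for the 3 largest differences past the threshold per direction. The study's own differential test needs read counts, which were not analysed here.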

Additional observations from a re-analysis of the deposited data

Results flagged for a closer look

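Among 81 groups of 4 libraries (fold enrichment, IP coverage or local background of a member region in a line), 8 held a library far from the other 3, with a gap, as a share of the range, above Dixon's 95% critical value. Chance flags about 1 in 20 such groups, or 4.05 of 81.

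For C4-2B replicate 1, the IP coverage of TICRR exon 20 was 132 against 177 to 184 in the other C4-2B libraries, and that of the 5′ CENPN region was 445 against 577 to 598. In CENPF exon 13 its fold enrichment was 3.24 against 6.14 to 6.66, and its local background 97.5 against 62.8 to 67.0. This library had the shortest list and was the only 1 in which IP was scaled down to a smaller input.

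For MDV-R replicate 3, with the shallowest input of its line, the local background was 58.2 against 23.3 to 26.3 in CENPF exon 12, and 28.2 against 15.2 to 16.9 in CENPF exon 18. The fold enrichment of TICRR exon 1 was 10.1 in C4-2B replicate 2 against 2.56 to 3.67 in the others, where its strongest summit lay 218 nt or more from theirs. The fold enrichment of TICRR exon 22 was 10.9 in MDV-R replicate 2 against 5.88 to 6.70.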

How the results depend on the processing

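The 6 falls in IP coverage among the members held when any library was left out (6 to 6 regions), and no member passed for fold enrichment under any alternative run. Background calls in members ranged from 2 to 3 when a library was left out. Leaving out a library gave 22 to 121 regions higher and 71 to 284 lower in fold enrichment over all regions, 1937 to 2029 and 2247 to 2383 in IP coverage, and 322 to 510 and 371 to 474 in local background. Member regions called in all lists then numbered 10 to 13, those of MDV-R alone 1 to 2, those of C4-2B alone 0 to 1, those with any call 28 to 32, and regions past the test of calls 0 to 0. When every list kept only as many peaks as the shortest holds, 1 member region was called in all C4-2B lists alone.

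Without centring, 318 regions were higher and 21 lower in fold enrichment, 1361 lower in IP coverage, and 153 higher and 994 lower in local background. With a call in at least 3 lists of each line, 136 were higher in fold enrichment. The exact permutation test gave 0 calls in every count, members included. Its smallest p is 0.0286 with 70 arrangements, which left the 6 member regions lower in IP coverage at an adjusted p of 0.0618, so this count says nothing about their stability. Signs turned, with no value past the threshold, for CENPB in fold enrichment without centring (0.33) and without MDV-R replicate 4 (0.09, range -0.26 to 0.09 over the left-out libraries), for CENPB in background without MDV-R replicate 3 (0.02, range -0.42 to 0.02), and for CENPF exon 13 in IP coverage with the peak of highest fold enrichment (0.04). The cause of these shifts was not tested.

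The shared replicate numbers did not pair the samples: deviations of same-numbered libraries correlated between -0.0749 and 0.0436. With the replicate number as a block, 377 regions were lower in background, 2 of them members (MKI67 exon 13 and 3′UTR), while 6 member regions stayed lower in IP coverage and 0 passed for fold enrichment or calls.

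Coverage is known at called peaks alone, so a region without a peak has no level, and read depth limits the weak regions (7 to 75 IP fragments in those called in 1 list).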
